A study of Mus musculus with 5 samples.

Results

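The 8 genes Nkx2-5, Isl1, Mef2c, Myocd, Hand1, Hand2, Tbx5 and Tbx20 encode transcription factors and a cofactor of cardiac mesoderm. They were taken by symbol from the 21774 protein-coding genes of the RefSeq annotation of the mouse genome build GRCm38.p6, whose chromosomes are those of mm10. A DNaseI hypersensitive site (DHS) was counted for a gene if it lay within 1 kb of any annotated transcription start site (TSS) of that gene. It was also counted if it lay inside the gene, or up to 100 kb from its TSS, and the gene was the nearest protein-coding gene. By this rule 110 listed sites belonged to the 8 genes over the 5 lists, 27 of them promoter sites within 1 kb of a TSS.

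DNaseI-seq was performed on purified populations from a mouse ES cell line of strain 129 that carried a GFP reporter in Brachyury and was differentiated in vitro towards blood. Mesoderm (MES) was sorted as Bry:GFP+ Flk1-, hemangioblasts (HB) as Bry:GFP+ Flk1+, hemogenic endothelium (HE) as Tie2+ cKit+ CD41- (the label adds Bry:GFP+), hematopoietic progenitors (HP) as CD41+ and macrophages (MAC) as CD11b+. There was 1 list of sites per stage, and the MAC list carried a label that named 2 replicates. No spread between replicates could be measured, so the counts below are descriptions of 5 lists with no test, and a missing site means only that none was listed.

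Cardiac and blood lineages both descend from mesoderm that leaves the primitive streak. The factors named here form a network in which homeodomain, MADS-box, basic helix-loop-helix and T-box proteins bind enhancers of each other and of contractile genes, usually together with GATA factors. DNaseI cuts DNA where nucleosomes have been displaced, so a hypersensitive site marks a promoter or enhancer that proteins can reach, whether or not the gene is transcribed.

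The lists differed in length and in the width of their sites. From MES to MAC they held 21949, 24729, 33305, 17734 and 37456 sites, with median widths of 800, 900, 1200, 900 and 600 bp. Promoter sites at the genes of the sorting markers were listed for T (Brachyury) in MES and HB, Tek (Tie2) in HE, Kit in all stages but MAC, Itga2b (CD41) in HE and HP and Itgam (CD11b) in MAC. Kdr (Flk1) had one in all 5 lists and did not separate the stages. The sites come from bulk populations, in which a site open in few cells and a site weakly open in many cells cannot be told apart.

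All 8 genes had a promoter site in HE, and only Mef2c and Tbx20 had one in MAC. In MES 4 of 8 had a promoter site (Hand1, Tbx20, Isl1 and Myocd), beside 55.5% of all protein-coding genes. In HB the number was 6 of 8, beside 57.1% of all genes, with Mef2c and Tbx5 added. In HE it was 8 of 8, beside 59.9%. In HP the same 4 genes as in MES had one, beside 48.6%, and in MAC 2 of 8 did, beside 48.7%. The MES and HP counts were therefore near the background, the HB and HE counts above it and the MAC count below it. The HP count rested on narrow sites. Without sites narrower than the median of the list, 1 of 8 members had a promoter site in HP, beside 37.7% of all genes.

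**Figure D1:**
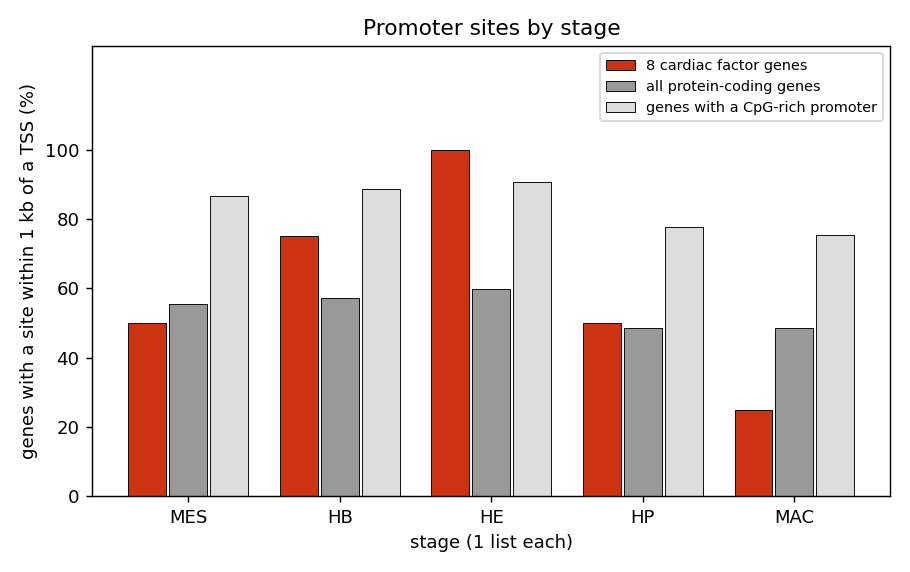
Percentage of genes with a listed site within 1 kb of a TSS (vertical axis, %) in each of the 5 stages, with 1 list per stage and no error bars. Red bars are the 8 cardiac factor genes, dark grey bars all 21774 protein-coding genes and light grey bars the 11978 genes with a CpG-rich promoter. The red bars are highest in HE (8 of 8 genes) and lowest in MAC (2 of 8).

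The stages in which a promoter was listed differed between the genes. Hand1, Isl1 and Myocd shared one pattern, a promoter site in every list but MAC, which 3.81% of all protein-coding genes had. Nkx2-5 and Hand2 had a promoter site in HE alone, as did 3.03% of all genes. Tbx5 had one in HB and HE, a pattern of 1.33% of genes, and Mef2c in HB, HE and MAC, a pattern of 0.464%. Tbx20 was the one member with a promoter site in all 5 lists, which was the commonest pattern of all genes at 42%. No member lacked a promoter site in every list, as 34.3% of genes did.

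Promoters rich in CpG dinucleotides are commonly open in most cell types. By base composition (at least 1 TSS with a GC share of 0.5 or more and an observed to expected CpG ratio of 0.6 or more over 500 bp), Hand2, Mef2c, Tbx5, Tbx20 and Isl1 were CpG-rich and Nkx2-5, Hand1 and Myocd were not. Among these 5 CpG-rich members, 2 had a promoter site in MES, where 86.7% of all CpG-rich genes had one. The counts were 4 of 5 in HB (88.8% of CpG-rich genes), 5 of 5 in HE (90.6%), 2 of 5 in HP (77.7%) and 2 of 5 in MAC (75.5%). Hand2 and Tbx5 were the 2 CpG-rich members listed in neither MES, HP nor MAC. Among the 3 members without a CpG-rich promoter, promoter sites were found for 3 of 3 in HE, beside 22.3% of all genes of that class, for 2 of 3 in MES (17.4%), HB (18.4%) and HP (13.1%), and for 0 of 3 in MAC (15.9%).

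**Figure D2:**
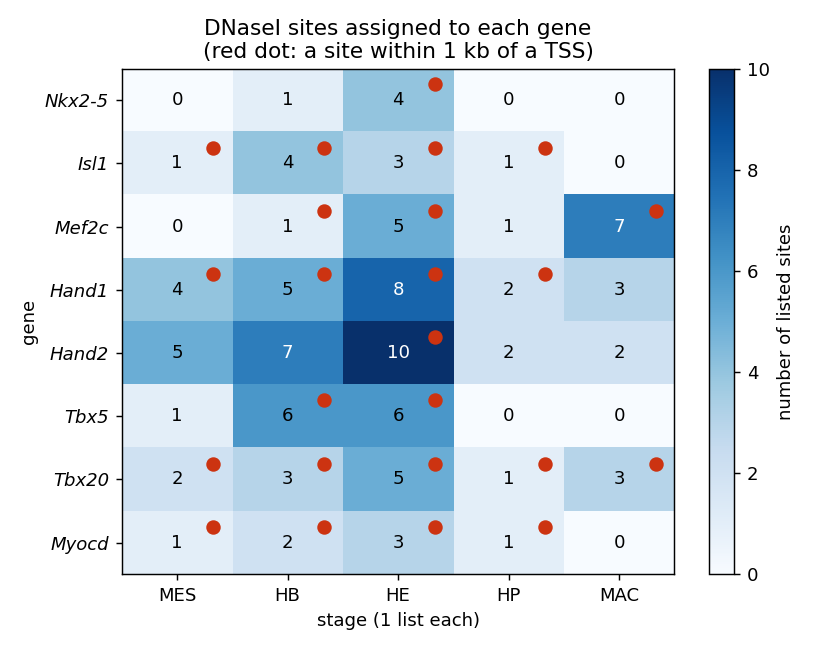
Number of listed sites assigned to each of the 8 genes (rows) in each stage (columns), printed in each cell and shown as shade from 0 to 10. A red dot marks a promoter site within 1 kb of a TSS. The HE column has a dot in every row, and Hand2 reaches 10 sites there.

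The number of all assigned sites was 14 at the MES stage, 29 at HB and 44 at HE, followed by 8 at HP and 15 at MAC. At least 1 site was assigned to all 8 members in HB (65.3% of all genes) and HE (69%), to 6 of 8 in MES (63.7%) and HP (56.7%) and to 4 of 8 in MAC (64.5%). The members lie in gene-poor surroundings. The stretch of chromosome from which a site could be assigned had a median of 160.5 kb for the members and 49.0 kb for all genes, so that more sites fall to them by length alone. Per 100 kb of that stretch, the members held 1.09, 2.26, 3.43, 0.624 and 1.17 sites from MES to MAC, and all genes 1.23, 1.37, 1.81, 1.01 and 2.02. The density at the members was therefore 1.65 times that of all genes in HB and 1.9 times in HE, but 0.885 times in MES, 0.619 times in HP and 0.578 times in MAC. These ratios pool the 8 genes, and single genes differed (sites per 100 kb). In HB Mef2c (0.371) and Myocd (1.3) and in HE Isl1 (1.5) lay below the value of all genes, and the other members above it. In MES Hand1 (3.86), Hand2 (2.99) and Tbx20 (1.44) lay above it and the others below. In HP Hand1 (1.93) and Hand2 (1.19) lay above it, and in MAC Hand1 (2.89), Mef2c (2.6) and Tbx20 (2.16) did.

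The HE list is long and its sites are wide, and its threshold may not match that of the other lists. When each list was cut to its 17734 widest sites, the length of the HP list, the ratio of densities was 1.64 in both HB and HE, 0.931 in MES, 0.619 in HP and 0.477 in MAC. The HP value is unchanged by construction, since its whole list is kept. With this selection HE no longer exceeded HB. Sites of exactly the cut-off width were kept or dropped by their order on the chromosomes. This left out a Tbx20 site of 1200 bp in HE and of 700 bp in HB, and a Hand2 site of 400 bp in MES. Other member sites of the cut-off width, such as that of Myocd in HE, were kept. Without the sites narrower than their list's median, the ratio was 1.75 in HB, 1.7 in HE, 0.609 in MES, 0.443 in MAC and 0.147 in HP, where 1 assigned site was left. HB and HE lay above the density of all genes under both selections, and MES, HP and MAC below it.

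**Figure D3:**
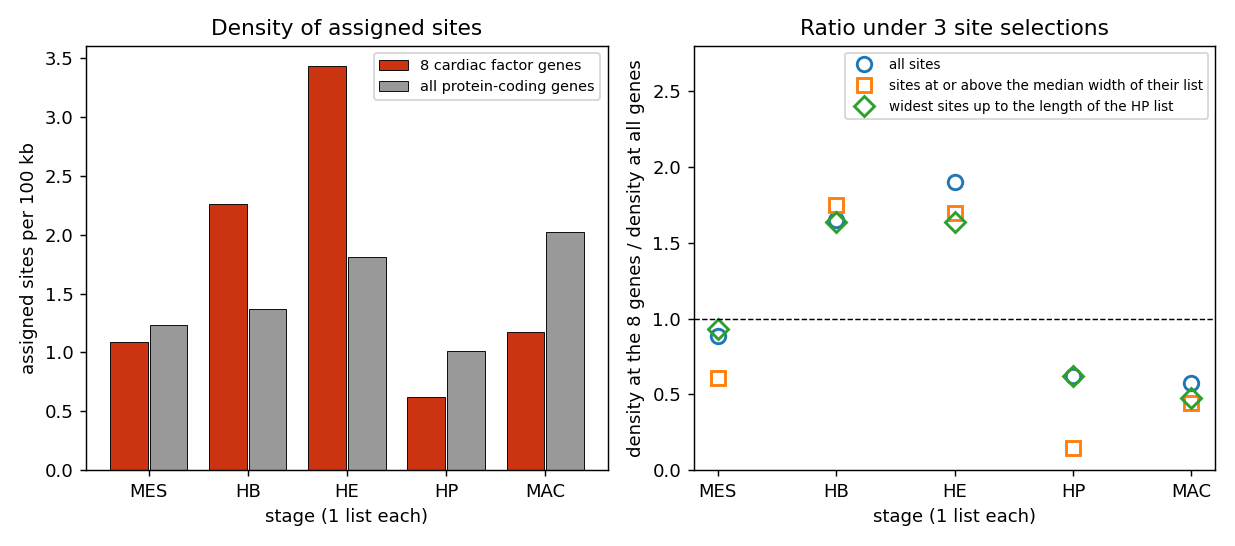
Left, assigned sites per 100 kb of the stretch from which sites could be assigned, for the 8 genes (red) and all protein-coding genes (grey), by stage. Right, the ratio of these densities (dashed line, 1) for all sites, for those no narrower than their list's median and for the 17734 widest per list. HB and HE lie above 1 under all 3 selections, and MES, HP and MAC below it.

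The members' sites were about as wide as their list in HB and HE and narrower in the other stages. Their median width was 600, 900, 1150, 550 and 400 bp from MES to MAC. At their promoter sites the medians were 900, 1100, 1600, 650 and 900 bp, beside 1000, 1200, 1600, 1100 and 800 bp over all promoter sites of the lists. The 4 promoter sites of HP were between 300 and 900 bp wide.

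The homeodomain factors are described first. Nkx2-5 (gene ID 18091, chr17:26838664-26844988, minus strand) encodes the homeodomain factor that marks cells committed to the heart. It had no listed site in MES, HP or MAC, 1 in HB and 4 in HE. The HB site, 1500 bp wide, lay at -9.0 kb (distances are from the nearest curated TSS, negative when upstream). The HE list held a site of 1700 bp at this same place, between genes, together with 1 of 600 bp at -16.1 kb.

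Both promoter sites of Nkx2-5 in HE lay beside the curated TSS and not on it. One, 1700 bp wide, ended 142 bp inside the gene from that TSS. The other, 600 bp wide, covered the second TSS of the annotation, which belongs to a predicted transcript upstream of the first. The RefSeq promoter of the curated TSS (chr17:26841516-26841815, minus strand) was overlapped by no listed site in any stage. It is printed from 250 bases before the TSS to 50 after it and held none of the 10 motifs described below, so no base is in capitals.
Nkx2-5 promoter: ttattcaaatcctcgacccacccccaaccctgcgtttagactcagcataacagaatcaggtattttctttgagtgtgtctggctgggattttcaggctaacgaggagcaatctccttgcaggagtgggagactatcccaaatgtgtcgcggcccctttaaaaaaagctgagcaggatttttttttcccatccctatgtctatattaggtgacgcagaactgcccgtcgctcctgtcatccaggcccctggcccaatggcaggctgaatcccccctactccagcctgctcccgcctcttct
The region at -9.0 kb, the one Nkx2-5 region in more than 1 list, is printed from its centre (chr17:26850477-26850676, plus strand). A CArG box, the element bound by SRF, is in capitals.
Nkx2-5 distal region: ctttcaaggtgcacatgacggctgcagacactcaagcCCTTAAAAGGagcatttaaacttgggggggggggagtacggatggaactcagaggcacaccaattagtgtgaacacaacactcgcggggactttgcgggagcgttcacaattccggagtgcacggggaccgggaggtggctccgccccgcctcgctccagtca

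Isl1 (gene ID 16392, chr13:116298270-116309688, minus strand) encodes the LIM-homeodomain factor of second heart field progenitors and of motor neurons. Its promoter site was centred on the TSS to within 22 bp in 4 lists, with widths of 900, 1200, 1600 and 800 bp from MES to HP. MAC listed no site for Isl1. The promoter was the only Isl1 site of MES and HP. HB added 3 sites, at 15.6, 12.0 and -4.2 kb, and HE listed the first pair of these again, at 15.7 and 12.1 kb, but not the third.
The promoter of Isl1 (chr13:116309639-116309938, minus strand) lay wholly inside the site of all 4 lists. It has 37 CpG dinucleotides in 300 bases, and a GATA match is in capitals.
Isl1 promoter: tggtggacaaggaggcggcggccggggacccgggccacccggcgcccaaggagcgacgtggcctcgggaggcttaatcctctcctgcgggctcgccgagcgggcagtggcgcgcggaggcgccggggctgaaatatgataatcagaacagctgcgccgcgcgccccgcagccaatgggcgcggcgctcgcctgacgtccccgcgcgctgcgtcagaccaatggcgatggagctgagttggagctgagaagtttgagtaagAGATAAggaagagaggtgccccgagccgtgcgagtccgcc

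Mef2c was the member with the most sites in MAC. It encodes a MADS-box factor of the second heart field that also acts in endothelial, myeloid and B cells (gene ID 17260, chr13:83504017-83667079, plus strand). It had 7 sites in MAC and 5 in HE, but 1 each in HB and HP and 0 in MES, and all 10 of its merged regions lay in its own introns or at its internal TSS. (Sites of different lists were merged into 1 region where windows of 500 bp around their centres overlapped sufficiently.)

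The gene has 4 curated TSS, and its promoter sites were at the internal ones. The site at the TSS cluster near chr13:83523656 was 900 bp wide in HB, 2000 bp in HE and 1400 bp in MAC, and was not listed in MES or HP. Only 4% of the HE list and 2% of the MAC list were as wide or wider. A second promoter site, at -1.4 kb from the last curated TSS, was 1200 bp wide in HE and 900 bp in MAC. No site was listed at the first TSS.
Away from the promoters, 5 intronic regions at 12.0, 28.3, 30.9, 35.8 and 76.4 kb were listed in MAC alone, and those at 18.2 and 81.6 kb in HE alone. The sites at 30.9 and 35.8 kb were 1000 and 1100 bp wide, when the median of the MAC list was 600 bp. The one HP site of Mef2c, 500 bp at -5.3 kb, was shared with HE, where it was 1000 bp wide.
The promoter at the internal TSS (chr13:83523406-83523705, plus strand) and the region shared by HE and HP (chr13:83518364-83518563, plus strand) are given, because they were open in different stages. Capitals mark an ISL and a PU.1 match in the first and a PU.1 match in the second.
Mef2c promoter: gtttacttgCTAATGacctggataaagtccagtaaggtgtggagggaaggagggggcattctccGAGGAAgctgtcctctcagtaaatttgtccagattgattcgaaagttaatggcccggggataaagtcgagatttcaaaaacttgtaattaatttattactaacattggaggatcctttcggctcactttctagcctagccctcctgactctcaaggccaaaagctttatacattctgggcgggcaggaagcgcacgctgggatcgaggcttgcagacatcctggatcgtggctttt
Mef2c distal region: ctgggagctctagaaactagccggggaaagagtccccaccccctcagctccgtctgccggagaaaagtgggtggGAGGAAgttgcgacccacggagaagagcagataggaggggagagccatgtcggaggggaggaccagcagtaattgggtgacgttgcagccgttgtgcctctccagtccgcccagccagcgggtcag

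Myocd (gene ID 214384, chr11:65173608-65269989, minus strand) encodes myocardin, the SRF cofactor of cardiac and smooth muscle. It had 1 site in MES, 2 in HB and 3 in HE, then 1 in HP and none in MAC. The promoter site covered the TSS in the first 4 lists and was 800, 1000, 1200 and 300 bp wide. The HP site was among the narrowest of its list, since 99.6% of HP sites were as wide or wider. HB and HE shared a region between genes at -26.2 kb, and HE alone listed a further one at -23.1 kb.

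The bHLH genes had the largest numbers of sites of the 8. Hand1 encodes a factor of the left ventricle and of extraembryonic mesoderm (gene ID 15110, chr11:57828713-57832147, minus strand). Its 22 sites over the 5 lists (4, 5, 8, 2 and 3 from MES to MAC) were matched or exceeded by 3.02% of all genes. Its promoter site covered the TSS and had widths of 1100 bp (MES), 1600 bp (HB), 1900 bp (HE) and 500 bp (HP). It was among the widest of the HB promoter sites, of which 5.8% were as wide or wider, and among the narrowest of HP, where 96% were.

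Apart from the promoter and an overlap near -79.7 kb, the Hand1 sites of MES and HB lay in other places than those of HE, HP and MAC. MES and HB shared a region at 4.6 kb, downstream of the gene, and one at -32.7 kb inside the lncRNA gene Gm33026. Neither was listed in HE, HP or MAC. HE listed 5 regions of its own, at -5.0, -40.9, -44.4, -54.0 and -84.2 kb, and shared one at -63.4 kb with MAC. MAC listed no promoter site and 3 sites between -63.6 and -79.7 kb. The region at -79.7 kb, inside the lncRNA gene Gm33078, was listed in HE, HP and MAC and not in MES or HB, and an HB site of 1600 bp was centred next to it at -80.5 kb. The deposited HB interval overlaps those of HE, HP and MAC, so HB joins this region when whole intervals are merged. A site of 200 bp at 11.9 kb was listed in MES alone, and one of 800 bp at -72.3 kb in HB alone. By all annotated TSS in place of the curated ones, part of this far upstream stretch is nearer to another gene, and Hand1 then had 6 sites in HE, 3 in HB, 2 in MAC and 1 in HP.
The centre of the region at -79.7 kb (chr11:57911788-57911987, plus strand) is printed because it was the only distal Hand1 region listed in 3 stages by its centre. A RUNX match is in capitals.
Hand1 distal region: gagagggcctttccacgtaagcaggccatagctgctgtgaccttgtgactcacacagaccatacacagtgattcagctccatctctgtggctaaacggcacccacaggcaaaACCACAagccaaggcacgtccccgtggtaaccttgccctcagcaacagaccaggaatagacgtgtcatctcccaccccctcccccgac

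Hand2 encodes the related factor of the right ventricle, limb and neural crest (gene ID 15111, chr8:57320983-57324517, plus strand). Its 26 sites were the highest number of the 8 genes, and 1.65% of all genes had as many or more. They numbered 10 in HE, 7 in HB and 5 in MES, with 2 each in HP and MAC. The promoter, in contrast, was listed only in HE, by a site of 1800 bp that covered the TSS. Thus MES and HB had 5 and 7 sites around a gene with none at its promoter.

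The distal Hand2 sites formed a row of shared regions. Those at -8.3, 12.8 and 20.1 kb were listed in MES, HB and HE, and that at 32.8 kb in MES, HB, HE and HP. In the last, the sites were 500 and 600 bp wide in MES and HP and 1000 and 1100 bp wide in HB and HE. The region at -6.6 kb was listed in MES and HB, that at 7.6 kb in HB and HE and that at 40.3 kb in HE and HP. HE alone listed those at 11.2 and 24.2 kb. The upstream pair lay inside the lncRNA gene Hand2os1, and the regions at 12.8, 20.1 and 32.8 kb inside the lncRNA gene Hdnr. In an intron of Hand2 itself, HB listed a site of 600 bp at 2.5 kb and HE one of 1400 bp at 2.1 kb. The deposited intervals of these overlapped, but their centres were too far apart to be merged. The MAC sites of Hand2, 400 and 300 bp wide at -88.4 and -85.0 kb, were shared with no other stage.
The Hand2 promoter (chr8:57320733-57321032, plus strand), open in HE, is set beside the centre of the region at 32.8 kb (chr8:57353650-57353849, plus strand), which was open in 4 stages. Capitals mark a HAND-type E-box and a GATA match in the promoter and a HAND-type E-box in the distal region.
Hand2 promoter: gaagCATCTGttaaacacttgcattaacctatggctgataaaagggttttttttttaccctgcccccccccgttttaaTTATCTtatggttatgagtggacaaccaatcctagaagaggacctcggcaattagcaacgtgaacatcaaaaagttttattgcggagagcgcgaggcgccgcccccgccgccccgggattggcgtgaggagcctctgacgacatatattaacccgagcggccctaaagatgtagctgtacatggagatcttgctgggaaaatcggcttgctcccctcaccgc
Hand2 distal region: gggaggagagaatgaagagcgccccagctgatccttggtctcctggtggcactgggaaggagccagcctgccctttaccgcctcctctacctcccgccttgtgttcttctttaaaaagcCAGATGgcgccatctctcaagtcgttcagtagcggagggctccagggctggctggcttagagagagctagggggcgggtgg

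Among the T-box genes, Tbx5 was listed in MES, HB and HE only. It encodes the factor of the first heart field and forelimb (gene ID 21388, chr5:119796514-119885220, plus strand) and had 1 site in MES, 6 in HB and 6 in HE. The MES site, 700 bp at -30.8 kb, was also listed in HB and HE, with 1000 and 1100 bp. It lies inside the longest gene model and is CpG-rich. HB and HE also shared a region at -63.7 kb, between genes, and one at 40.8 kb, in an intron.

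The remaining Tbx5 sites belonged to HB or HE alone. HB listed sites at -26.6, 0.7 and 10.5 kb, and HE at -3.2, 5.4 and 62.4 kb. Its promoter call was the least firm of the 8. The HB site was 400 bp wide and 537 bp inside the gene from the curated TSS, and the HE site lay beside an upstream TSS of a predicted transcript. With a reach of 100 bp no stage had a Tbx5 promoter site, and with curated TSS alone HB had one and HE had none.
The centre of the region at -30.8 kb (chr5:119803738-119803937, plus strand) is printed as the one Tbx5 region of all 3 early stages. It held no motif match within these 200 bases.
Tbx5 distal region: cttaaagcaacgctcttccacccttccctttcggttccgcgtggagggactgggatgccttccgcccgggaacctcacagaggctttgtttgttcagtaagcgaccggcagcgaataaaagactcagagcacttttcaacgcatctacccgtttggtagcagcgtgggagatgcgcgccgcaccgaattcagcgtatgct

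Tbx20, required for growth and septation of the heart, had a promoter site in all 5 lists (gene ID 57246, chr9:24720812-24774303, minus strand). The site was 900 bp wide in MES and again in HP, 1200 bp in HB, 1600 bp in HE and only 300 bp in MAC. In MAC 95.7% of promoter sites were as wide or wider, and the call was absent when only the wider part of the list (its median width or more), or the 17734 widest, was kept. A region at -7.1 kb, inside the lncRNA gene Gm29824, was listed in MES (600 bp), HB (700 bp) and HE (1100 bp). HB and HE shared a region at -74.1 kb, HE and MAC one at 3.8 kb in an intron, and the promoter was the sole Tbx20 site of HP.
The Tbx20 promoter (chr9:24774254-24774553, minus strand) was covered from end to end in MES, HB, HE and HP and overlapped in MAC. It held none of the 10 motifs, whereas the region at -7.1 kb (chr9:24781276-24781475, plus strand) had an ISL match, in capitals.
Tbx20 promoter: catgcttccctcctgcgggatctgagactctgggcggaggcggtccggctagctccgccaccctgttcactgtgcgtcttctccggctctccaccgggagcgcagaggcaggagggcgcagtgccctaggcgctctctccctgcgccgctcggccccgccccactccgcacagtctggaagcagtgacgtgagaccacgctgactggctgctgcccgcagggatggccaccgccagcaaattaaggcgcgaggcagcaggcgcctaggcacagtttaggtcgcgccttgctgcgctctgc
Tbx20 distal region: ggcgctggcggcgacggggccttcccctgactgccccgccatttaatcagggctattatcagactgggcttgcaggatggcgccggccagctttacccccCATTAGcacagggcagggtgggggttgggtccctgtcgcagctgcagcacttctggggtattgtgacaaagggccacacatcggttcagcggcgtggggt

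**Figure D4:**
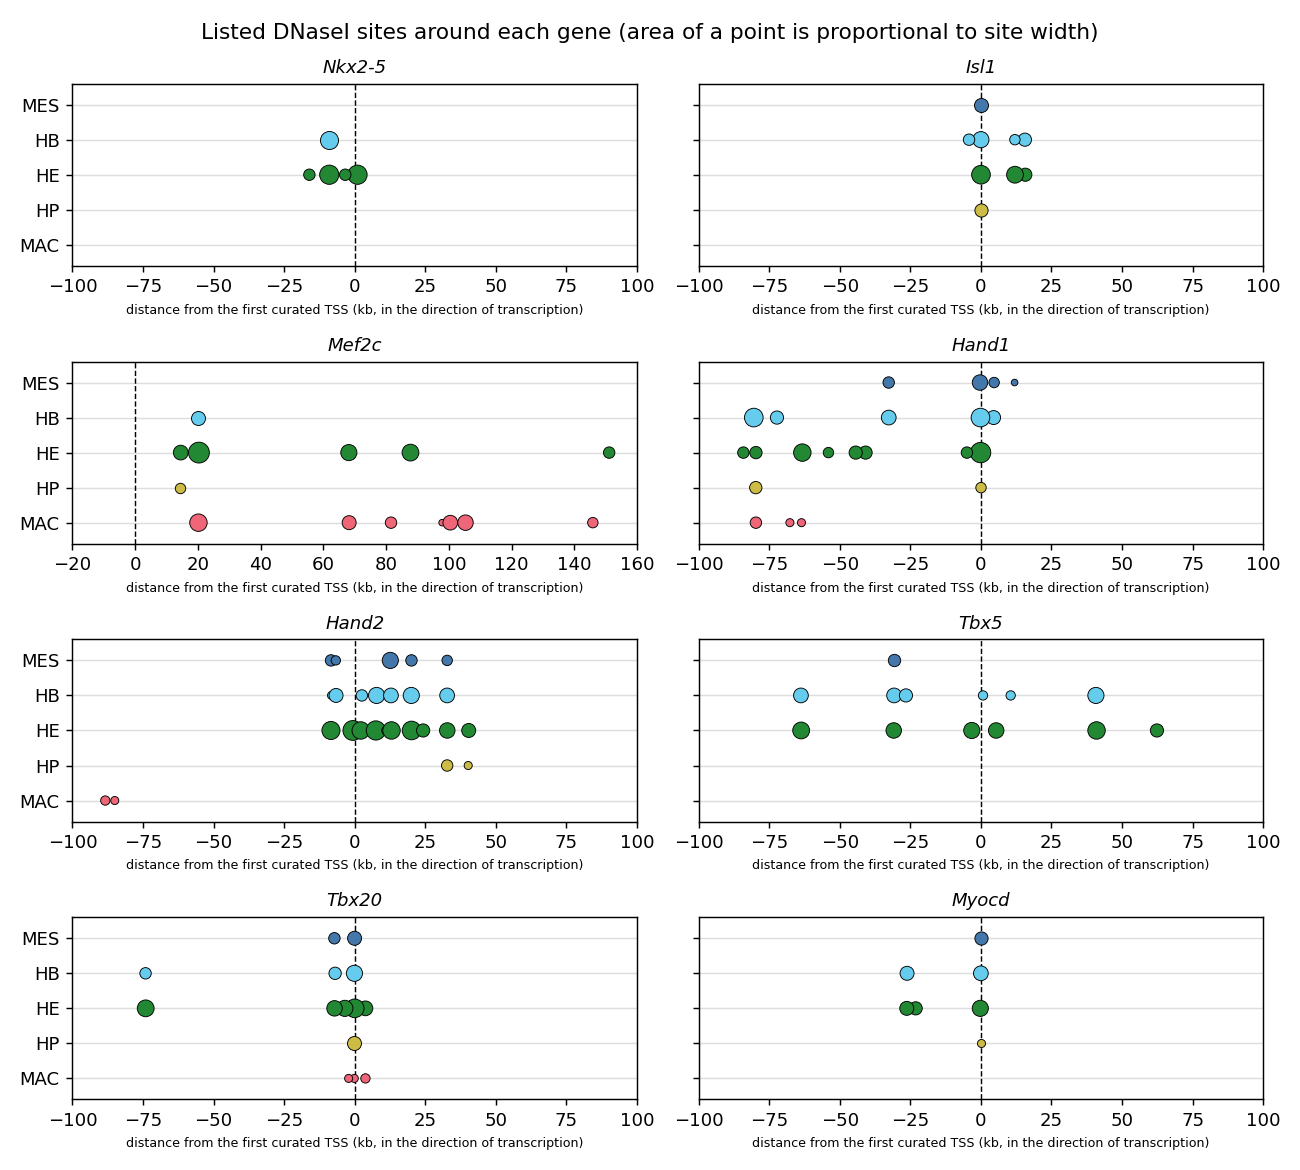
Listed sites of each gene by stage (rows) against the distance of their centre from the first curated TSS in kb, in the direction of transcription (dashed line, 0). The area of a point is proportional to the width of the site. For Mef2c the axis runs over the gene body. Hand2 has points at -8.3, 12.8, 20.1 and 32.8 kb in each of MES, HB and HE, Mef2c a row of MAC points within the gene, and Tbx5 no point in HP or MAC.

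Merged over the lists, the 110 sites formed 64 regions, of which 55 lay over 2 kb from the nearest curated TSS. Of these 55, 18 were inside a protein-coding gene but outside its curated exons, 16 inside a lncRNA gene only and 21 between genes. Listed in MES were 10 of the 55, beside 20% of all such regions of the genome. In HB the number was 23, beside 24.8%, and in HE 36, beside 40%. In HP it was 4, beside 15.2%, and in MAC 12, beside 51.7%.

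Some patterns took a larger share of the members' distal regions than of all distal regions. The pair HB and HE accounted for 8 of 55 (14.5%), beside 1.98% of all, and came from Nkx2-5, Hand2, Tbx5, Tbx20, Isl1 and Myocd. MES, HB and HE together accounted for 5 (9.09%), beside 2.11%, which were 3 of Hand2 and 1 each of Tbx5 and Tbx20. Regions of HE alone were 17 (30.9%), beside 18.9%. They include the HE sites of Nkx2-5 at -3.4 kb and of Tbx5 at -3.2 kb, which were also counted as promoter sites because they lie near a TSS that is not curated. Regions of MAC alone were 9 (16.4%), beside 38.2%, and 5 of these lay in Mef2c. The counts fell when narrow sites were left out, as did the number of regions. With sites of at least the median width, HB and HE accounted for 5 of 25 distal regions (20%, beside 2.37% of all) and HE alone for 8 (32%, beside 21.2%). Among the 17734 widest, the counts were 4 of 30 (13.3%, beside 1.06%) and 6 (20%, beside 11.6%). The pattern of MES, HB and HE was then found in 1 of 25 (4%, beside 1.67%) and in 2 of 30 (6.67%, beside 1.21%). No distal region of the 8 genes was listed in all 5 stages. Regions of one gene are not independent of each other, and these shares are descriptions.

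**Figure D5:**
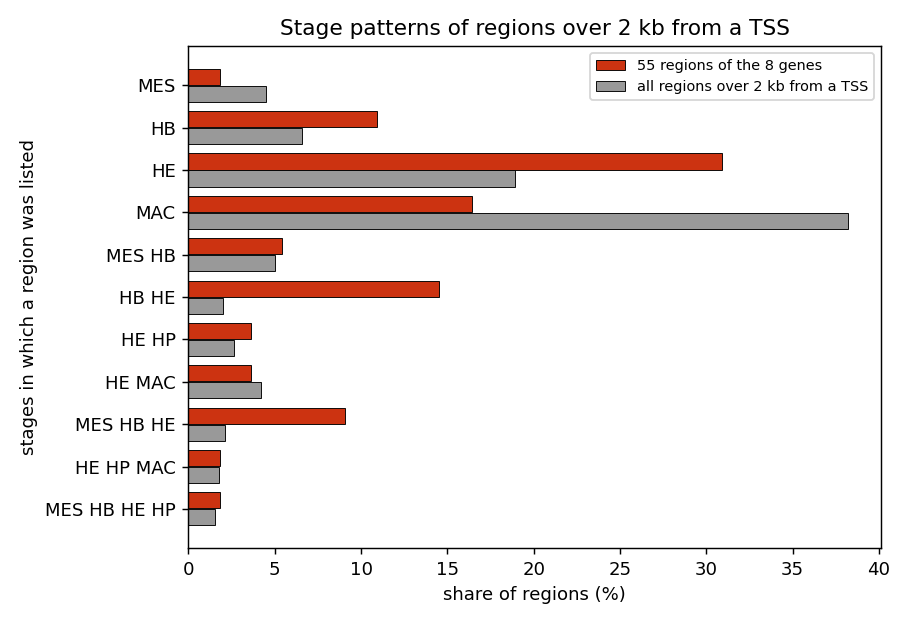
Share of regions (horizontal axis, %) by the stages in which they were listed, for the 55 distal regions of the 8 genes (red) and all 52345 regions over 2 kb from a TSS (grey). Only patterns found among the 55 are drawn. The red bar is longer than the grey one for HB HE (14.5% and 1.98%) and shorter for MAC (16.4% and 38.2%).

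Followed from stage to stage, most regions of the members persisted into HB and few beyond HE. Of the 14 regions of MES, 13 (92.9%) were also listed in HB, as were 81.5% of all MES regions. Of the 29 in HB, 19 (65.5%) were listed in HE, beside 63.7% of all. Of the 44 in HE, 8 (18.2%) were listed in HP, beside 42.9% of all HE regions. Those 8 were all the regions HP had at these genes, and of all HP regions in the genome 80.5% were listed in HE. They were the promoters of Hand1, Tbx20, Isl1 and Myocd, 2 regions of Hand2 and 1 each of Hand1 and Mef2c. Of these 8, MAC listed 2 (25%), beside 66.2% of all HP regions, namely the Tbx20 promoter and the Hand1 region at -79.7 kb. The HP list is the shortest of the 5. When each list was cut to its 17734 widest sites, 4 of the 8 HP regions of the members (50%) were listed in HE, beside 64.6% of all HP regions.

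Several members had regions beyond the limit of 100 kb. There were 25, of which 16 were nearest to Mef2c, 4 to Hand2, 2 each to Tbx20 and Isl1 and 1 to Myocd. At Mef2c they fell into a group of MAC regions from -566.7 to -175.3 kb, 1 HE region at -143.4 kb and a group of 7 between 141.7 and 171.5 kb, of which 1 at 171.5 kb was listed in MES, HB, HE and HP. The nearest to the limit was the HB site of Hand2 at -107.1 kb, and the farthest counted was the MAC site of Hand2 at -88.4 kb.

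Other cardiac regulators were compared by promoter sites. Of 29 genes in this list, 18 had one in MES, 20 in HB and 23 in HE, against 12 in HP and 13 in MAC. The share of all genes was also highest in HE and lower in HP and MAC. A promoter site in MES or HB with none in HP or MAC was found for 6 of the 29, beside 8.81% of all genes. They were the GATA factor genes Gata5 (10 sites over the 5 lists) and Gata6 (14), the T-box gene Tbx2 (24), Mesp1 (16), which encodes the bHLH factor of early cardiac mesoderm, the homeobox gene Irx4 (4) and Smarcd3 (8), which encodes a chromatin remodelling subunit. Among the 8 members Tbx5 alone had this pattern. It was also found for 8 of 15 primitive streak genes, 3 of 8 fibroblast genes and 1 of 14 blood factor genes.

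Contractile genes of heart muscle were described in the same way. Of 18, promoter sites were found for 7 in HE, 5 each in MES and HP, 4 in HB and 2 in MAC, and 10 had none in any list, as did 34.3% of all genes. In HE this was 38.9% of the list, beside 59.9% of all genes and 22.3% of genes without a CpG-rich promoter, a class that holds 15 of the 18. The 38.9% is not a share of that class, since the 7 genes include Actn2, Myl4 and Ryr2, which are CpG-rich. The rest of the 7 were Myh7, Tnnt2, Tnni1 and Nppb, which are not. Myh6 and Myl3, which encode myosin chains of the heart, had no assigned site in any stage. Myh7 and Tnnt2 (cardiac troponin T) had a promoter site in HE alone. None of the 18 had a promoter site in MES or HB with none in HP and MAC.

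Lists for other lineages are given beside the shares of all genes, which were 55.5%, 57.1%, 59.9%, 48.6% and 48.7% from MES to MAC. Of 15 primitive streak genes, 11 had a promoter site in MES, 12 in HB and 10 in HE, against 3 in HP and 1 in MAC. Mesp1, Mesp2 and Fgf8 are in both this list and that of the cardiac regulators. Of 14 blood factor genes, the numbers were 5, 7, 10, 8 and 9. The blood factor count was highest in HE, as were the count at the 8 members and the share of all protein-coding genes (59.9%). The cells were kept on feeder fibroblasts before differentiation. MES and HB were sorted on the Brachyury-GFP reporter and HE as Tie2+ cKit+ CD41- (the label adds Bry:GFP+). Whether feeder cells remained after sorting was not measured. Of 8 fibroblast genes, 4 had a promoter site in HB and 4 in HE, against 3 in MES, 1 in HP and 0 in MAC. Col1a1 had a promoter site in every list but MAC, Col1a2 and Thy1 in MES, HB and HE, and Twist1 in HB and HE, whereas Col3a1, Dcn, Lum and Postn had none. Over the 5 lists the assigned sites numbered 12 for Col1a1, 9 for Thy1, 8 each for Col1a2 and Twist1, 5 for Postn, 3 for Col3a1 and 0 for Dcn and Lum. These counts were also highest in HB and HE, and their part in the result at the cardiac genes was not tested.

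The genes with the most similar counts over the 5 stages were sought for the members with at least 10 sites, by the sum of absolute differences of the 5 counts. For Hand2 they were Ctif (sum 3), Has2 and Meis2 (4 each). For Tbx5 they were Gata6 (3), Cobll1 and Gfi1 (4 each), of which Gata6 had 1, 6, 5, 0 and 2 sites from MES to MAC. For Mef2c they were Grk5 and Rab31 (1 each) and Adrb1 (2), and for Tbx20 Amotl1, Arhgap35 and Btrc (1 each). Small counts make such likeness easy to reach.

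Binding motifs of 10 factor families were counted in the central 500 bp of the 55 distal regions, on both strands, beside all 52345 such regions. The GATA motif, AGATAA, was found in 12 of 55 (21.8%, 95% Wilson interval 12.9 to 34.4), beside 27.3% of all regions. The matches came from Hand1 (5 regions), Tbx5 (4), Hand2 (2) and Isl1 (1). T-box (AGGTGTNA) was found in 7 (12.7%, 6.3 to 24), beside 6.44%, in regions of Hand1, Hand2 and Tbx5. The interval covers counting error only. It treats the 55 regions as independent, which regions of one gene are not, so it is a description and not a test. The share of 6.44% was just inside it.

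The other motifs were counted in the same way. NKX (TNAAGTG) was found in 14 regions (25.5%), beside 24.7%, and the HAND-type E-box (CATCTG) in 19 (34.5%), beside 37.3%. ISL (CTAATG) was found in 11 (20%), beside 16.8%, and TEAD (CATTCC) in 16 (29.1%), beside 29.3%. MEF2 was found in 4 (7.27%), beside 5.3%, and CArG in 3 (5.45%), beside 2.69%. Of the blood factor motifs, RUNX (TGTGGT) was found in 14 (25.5%, 15.8 to 38.3), beside 37.3%, and PU.1 (GAGGAA) in 30 (54.5%), beside 52.6%. Each background share lay inside the interval of the members' share in this window. In the central 200 bp PU.1 was found in 9 of the 55 regions (16.4%, 8.86 to 28.3), beside 29.6% of all, which lay outside the interval, while the shares of the other 9 motifs over all regions lay inside theirs. In the RefSeq promoters of 300 bases, the table held 7 for the members, of which 3 belong to Mef2c. GATA was found in 2 of the 7 (11.2% of all promoters), the HAND-type E-box in 2 (17.2%), PU.1 in 2 (28.3%), ISL in 1 (7.36%) and TEAD in 1 (14.7%). None of the 7 held T-box (3.03%), NKX (11.5%), RUNX (16.8%), MEF2 (3.19%) or CArG (1.63%). A match describes letters in a window, not a bound site.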

How the data were processed

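DNaseI-seq was performed on sorted cells of 5 stages. The authors trimmed reads with CutAdapt, aligned them to mm10 with Bowtie, discarded ambiguous and duplicate reads (Picard) and used DFilter, with 100 bp bins, to call sites. Tool versions are not given in the sources used here. The deposited lists hold the chromosome, start and end of each site in base pairs, with no score or read count, so the depth behind a site is unknown. Sites were assigned to RefSeq genes (GRCm38.p6) with Python 3.11.15, pandas 2.3.3 and numpy 2.4.6. Nearest genes were taken by the TSS of curated mRNAs, promoter sites by any annotated TSS, and the functions were tested on simulated sites. Sequences are the reference of C57BL/6J, not of strain 129, with promoters from RefSeq for 5 of the 8 genes and none for Hand1, Tbx5 and Myocd. Named genes were the 8 members, regulator and contractile genes with a promoter site in MES or HB and in neither HP nor MAC (up to 10 per list, by number of assigned sites), and for each member with at least 10 sites the 3 genes with the nearest counts. The genes nearest to Hand1 are not reported here. Examples among the contractile genes were chosen after their values were seen. The members and all gene lists were chosen with earlier results of these data known.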

Additional observations from a re-analysis of the deposited data

How the results depend on the processing

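No paired analysis was possible because each stage has 1 list and the labels pair no replicates. Counts changed by more than 1.5 times mainly when narrow sites were dropped. Without the sites narrower than their list's median, assigned sites were 22 in HE, 18 in HB, 6 in MAC, 5 in MES and 1 in HP, and members with a promoter site were 1 in HP (37.7% of all genes) and 1 in MAC (40.1%). Merged regions were then 33, of which 21 were in 1 stage, 21 in HE without HP, 10 in HE alone (30.3%, beside 18.3% of all regions), 5 in HB HE (15.2%, beside 2.7%), 4 in MAC alone and 0 in MES HB. With each list cut to its 17734 widest sites, assigned sites were 21 in HE and 6 in MAC, and 1 member had a promoter site in MAC (38.7%). Merged regions were then 38, of which 20 were in 1 stage, 17 in HE without HP, 4 in HP without HE, 8 in HE alone (21.1%, beside 10.6%), 4 in HB HE (10.5%, beside 1.13%), 3 in MAC alone and 2 in MES HB HE. A reach of 20 kb gave 29 sites in HE and 5 in HP. Fewer sites enter these settings by construction. In the central 200 bp, motif shares (with those of all regions) were 12.7% for GATA (12.7%), RUNX (18.6%) and TEAD (13.6%), 14.5% for the HAND-type E-box (17.6%) and NKX (10.4%), 16.4% for PU.1 (29.6%), 5.45% for ISL (7.28%) and 1.82% for MEF2 (1.9%) and T-box (2.61%). Written backwards, the consensus was found in 0% for CArG (2.08%), 10.9% for the HAND-type E-box (12.8%) and 5.45% for TEAD (15.6%). The shares of all regions lay outside the members' 95% Wilson interval for PU.1 in 200 bp (8.86 to 28.3) and, backwards, for TEAD (1.87 to 14.9) and MEF2 (9.09%, 3.95 to 19.6, beside 3.26%). These intervals treat regions of one gene as independent and are no test, and the cause was not tested. The other settings (a promoter reach of 100 bp or 2 kb, curated TSS, a reach of 50 kb, every site inside the gene, all TSS, and merging at 250 bp or by deposited intervals) changed no total over the 8 genes by more than 1.5 times. Single genes changed more. For example, a reach of 50 kb gave Hand1 4 sites in HE and 0 in MAC and Hand2 0 in MAC, all TSS gave Hand1 3 in HB and 1 in HP, and every site inside the gene gave Myocd 5 in HE. The depth of the libraries is unknown from the lists, so a site missing from one stage may have fallen below its threshold.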
